A study of Caenorhabditis elegans with 10 samples.

Results

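The comparison sets the Caenorhabditis elegans strain R9QT102I, which carries the unc-104 changes R9Q and T102I, against R9QG265R, which carries R9Q and G265R. Its 4 libraries, 2 per strain, were taken from 10 by the strain and replicate number in their titles. All are RNA-seq libraries from total RNA of untreated whole animals. The strain R9Q, with the single change, and the wild type strain WT, with 2 libraries each, serve as landmarks for the levels, and 2 libraries of R9Qunc-16, which carries R9Q and an unc-16 mutation, enter the fit only. R9Q is therefore common to both compared strains, and each differs from R9Q by a second amino acid change in the same protein. The stated purpose of the series was to measure unc-104 mRNA across these strains. The developmental stage, the number of animals and the way the second changes were obtained are not given in the sources used here.

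UNC-104 is the kinesin-3 motor of worm neurons, the counterpart of mammalian KIF1A. It walks along axonal microtubules towards their plus ends and delivers synaptic vesicle precursors and dense core vesicles to synapses. Loss of the motor leaves synaptic vesicles near the cell bodies and makes the animals uncoordinated. A suppressor is a second change that lessens the effect of the first, and one within the same gene is called intragenic.

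Between 6509916 and 7023349 reads were assigned to transcripts in the 4 libraries, and a count of 0 allows up to 3 counts, or 0.427 to 0.461 CPM, by counting error alone. CPM are counts scaled to a common library size, here corrected by the TMM method, with no allowance for gene length, so levels are compared between libraries and not between genes. The libraries of each strain stood apart. The mitochondrial genome held 0.0238% and 4.95% of assigned counts in R9QT102I replicates 1 and 2, and 5.51% and 0.02% in R9QG265R replicates 1 and 2, against 3.59 to 4.87% in the R9Q and WT libraries. Between the libraries of a strain, 1835 of 12267 tested genes (15%) differed more than 2-fold in R9QT102I and 3560 (29%) in R9QG265R, with 1 CPM added to each value. The median biological coefficient of variation, the spread between replicates beyond counting error, was 0.480 in these 4 libraries and 0.0804 in the R9Q and WT libraries. The titles do not say that replicates came from separate cultures, so p-values measure only the spread between these samples.

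The gene that carries all 3 changes could not be measured. All 4 transcripts of unc-104 (chromosome II, 6994987 to 7010625, ce11) had 0 counts throughout the 10 libraries. Reads that fell on more than 1 transcript went uncounted, and these made up 57.7 to 61.2% of aligned reads in the 4 libraries, so 0 counts say nothing about the level of unc-104 mRNA. The gene unc-16, which encodes a JNK scaffold protein that binds kinesin, had 5 and 26 counts in R9QT102I and 6 and 0 counts in R9QG265R. All of these counts fell on 1 of its 20 transcripts, so they too are no measure of the level of the whole gene. The log2 fold change of unc-16 from these counts, 2.17 (SE 1.26), was within the spread between replicates (adjusted p = 0.934, edgeR).

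R9QT102I and R9QG265R differed in few genes past the test. Among 12267 genes tested, 12 were called (0.0978%), 6 higher (0.0489%) and 6 lower (0.0489%) in R9QT102I, at an adjusted p under 0.05 in edgeR's quasi-likelihood test with Benjamini-Hochberg adjustment over all tested genes. At an unadjusted p under 0.05 there were 806 genes (6.57%), 403 in each direction (3.29% each). Fold changes below are log2 values of R9QT102I over R9QG265R from this fit, which holds all 10 libraries. The genes that rose encode enzymes of fat and small-molecule metabolism and small proteins, and the genes that fell carry names without a function.

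The clearest rise was that of cyp-13B1 (chromosome X, 13406674 to 13409643), a cytochrome P450, an enzyme class that oxidises lipids and foreign compounds. It had 164.8 and 195 CPM in R9QT102I and 28 and 28.9 CPM in R9QG265R, while R9Q had 13.2 and 16.4 CPM and WT had 220 and 202 CPM. The R9QT102I libraries thus lay close to WT and the R9QG265R libraries close to R9Q, and the log2 fold change was 2.66 (SE 0.21, 95% interval 2.18 to 3.14, adjusted p = 0.0131). The same order held for cpt-3 (chromosome III, 2082819 to 2088314), a carnitine palmitoyltransferase of the family that brings long-chain fatty acids into mitochondria. It had 41.9 and 42.8 CPM in R9QT102I, 4.16 and 4.36 CPM in R9QG265R, 3.52 and 3.48 CPM in R9Q and 51.8 and 60.9 CPM in WT. Its log2 fold change was 3.31 (SE 0.27, 95% interval 2.69 to 3.93, adjusted p = 0.0131).

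The largest rise belonged to spp-9 (chromosome X, 11487784 to 11488203), a saposin-like protein of a family that binds or disrupts membranes. It had 129 and 61 CPM in R9QT102I and 4.16 and 2.69 CPM in R9QG265R, beside 0.440 and 0.387 CPM in R9Q and 47 and 46 CPM in WT. The R9QT102I libraries differed from each other but both stood far above R9QG265R (log2 fold change 4.79, SE 0.45, adjusted p = 0.0182). The acyltransferase-family gene oac-14 (chromosome X, 10139372 to 10142013) had 27.5 and 28.6 CPM in R9QT102I, 5.6 and 5.71 CPM in R9QG265R, 5.14 and 4.64 CPM in R9Q and 37.2 and 35.6 CPM in WT. Its log2 fold change was 2.31 (SE 0.26, adjusted p = 0.0327).

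In the other called genes of this direction R9QT102I also passed the WT level. The nematode-specific peptide gene nspg-7.2 (chromosome III, 3256689 to 3258406) had 298 and 253 CPM in R9QT102I, 76.4 and 55.2 CPM in R9QG265R, 38.7 and 33.4 CPM in R9Q and 161 and 153 CPM in WT (log2 fold change 2.06, SE 0.23, adjusted p = 0.0305). The carboxylesterase-family gene cest-2.1 (chromosome V, 14168360 to 14171481) had 48.3 and 77.3 CPM in R9QT102I and 8.01 and 7.38 CPM in R9QG265R. Its R9Q level of 18.3 and 14.8 CPM and WT level of 15.7 and 16 CPM lay between the suppressed strains, so the log2 fold change of 3.03 (SE 0.34, adjusted p = 0.0306) spans a departure on both sides.

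**Figure D1:**
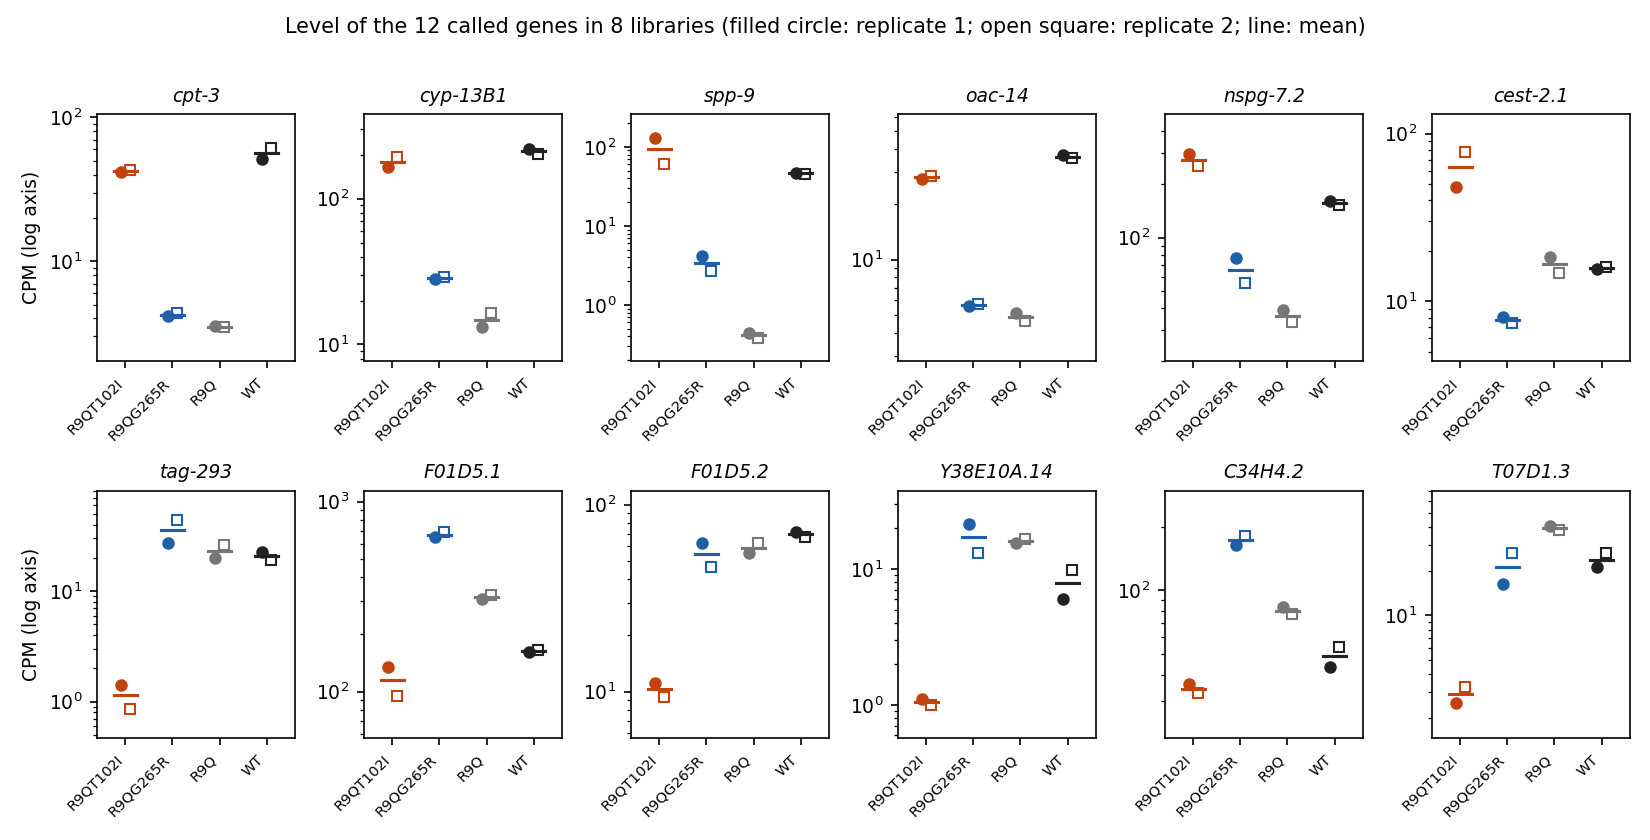
Level of each of the 12 called genes in CPM (log axis) in the libraries of R9QT102I, R9QG265R, R9Q and WT, 1 point per library. For each gene the R9QT102I points do not overlap the R9QG265R points, and for cpt-3 they stand at 41.9 and 42.8 CPM against 4.16 and 4.36 CPM.

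Of the genes that fell in R9QT102I, tag-293 (chromosome V, 7354435 to 7355564) moved most. It had 1.42 and 0.853 CPM in R9QT102I, from 9 and 6 counts, and 27.1 and 44.3 CPM in R9QG265R. R9Q had 20.1 and 26.4 CPM and WT had 22.7 and 18.9 CPM, so R9QT102I was the strain below all others (log2 fold change -4.96, SE 0.44, adjusted p = 0.0166). T07D1.3 (chromosome X, 2442970 to 2443404) was also lowest in R9QT102I, with 2.52 and 3.27 CPM in R9QT102I, 16.3 and 26.5 CPM in R9QG265R, 40.8 and 37.9 CPM in R9Q and 21.3 and 26.4 CPM in WT (log2 fold change -2.88, SE 0.35, adjusted p = 0.0461).

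The neighbouring genes F01D5.1 and F01D5.2 on chromosome II both fell. F01D5.1 (13996958 to 13997581) had 135 and 94.3 CPM in R9QT102I and 650 and 688 CPM in R9QG265R, with 307 and 321 CPM in R9Q and 161 and 165.3 CPM in WT (log2 fold change -2.54, SE 0.25, adjusted p = 0.0190). F01D5.2 (13998460 to 13999064) had 11.2 and 9.38 CPM in R9QT102I and 62.1 and 46.3 CPM in R9QG265R, with 55.2 and 62.6 CPM in R9Q and 71.5 and 67.4 CPM in WT (log2 fold change -2.40, SE 0.24, adjusted p = 0.0227). For F01D5.1 the R9QG265R libraries lay above and the R9QT102I libraries below every R9Q and WT library, and for F01D5.2 the R9QT102I libraries lay below every R9QG265R, R9Q and WT library. The next genes on the same strand, F01D5.3 and F01D5.5, missed the threshold with log2 fold changes of -2.34 (adjusted p = 0.0787) and -1.74 (adjusted p = 0.0964). On the other side of a gap, F01D5.6 and F01D5.10 had log2 fold changes of 0.58 and 0.16, each with an adjusted p of 1.

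The remaining genes that fell were C34H4.2 and Y38E10A.14. C34H4.2 (chromosome IV, 1553752 to 1555567) had 36 and 32.8 CPM in R9QT102I, 164 and 181 CPM in R9QG265R, 83.2 and 77.3 CPM in R9Q and 43.6 and 54.4 CPM in WT (log2 fold change -2.32, SE 0.28, adjusted p = 0.0461). Y38E10A.14 (chromosome II, 12623110 to 12624533) had 1.1 and 0.995 CPM in R9QT102I, from 7 counts each, 21.6 and 13.1 CPM in R9QG265R, 15.7 and 16.6 CPM in R9Q and 6.08 and 9.79 CPM in WT (log2 fold change -4.03, SE 0.42, adjusted p = 0.0245). The genes of these paragraphs with sequence names were chosen for naming after their values were seen.

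The calls lean on the libraries outside the comparison. With the 4 compared libraries alone edgeR called 0 genes (436 at an unadjusted p under 0.05), and it also called 0 when any 1 WT or R9Q library was left out (605 to 610 at that p) or R9QT102I replicate 1 was (667). It called 1 without R9QT102I replicate 2, 14 without R9QG265R replicate 1, 8 without R9QG265R replicate 2, and 61 and 70 without R9Qunc-16 replicates 1 and 2, while DESeq2 called 186 on all 10 libraries. Each of the 12 genes kept its sign in every alternative in which it was tested.

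A further 13 genes lay just above the threshold, all at an adjusted p of 0.0505, 5 of them with positive and 8 with negative fold changes. Only some of the 13 are described, and these are given as values. The starvation-responsive acyl-CoA synthetase acs-2, which activates fatty acids for mitochondrial oxidation, had 3521 and 2897 CPM in R9QT102I and 273 and 495 CPM in R9QG265R. R9Q had 435 and 446 CPM and WT 855 and 876 CPM, so R9QT102I was the strain above all others (log2 fold change 3.06, SE 0.41). The gene klp-6, which encodes a kinesin-3 like UNC-104 itself and is known from cilia of male sensory neurons, had 41.4 and 40.7 CPM in R9QT102I, 8.49 and 5.2 CPM in R9QG265R, 10.9 and 9.67 CPM in R9Q and 11.1 and 9.01 CPM in WT (log2 fold change 2.58, SE 0.35). The cytochrome P450 gene cyp-34A10 had 84.2 and 76.5 CPM in R9QT102I and 18.3 and 17.5 CPM in R9QG265R (log2 fold change 2.17, SE 0.30).

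The nuclear hormone receptor gene nhr-99 had 77.8 and 73.5 CPM in R9QT102I, 21.5 and 27.4 CPM in R9QG265R, 47.1 and 57.5 CPM in R9Q and 68.9 and 75.6 CPM in WT (log2 fold change 1.63, SE 0.22). Here R9QG265R lay below R9Q, and R9QT102I at the WT level. Among the genes with negative fold changes, the glutathione transferase gst-38 had 19.99 and 20.2 CPM in R9QT102I and 591 and 234 CPM in R9QG265R, with 115.95 and 109 CPM in R9Q and 72.4 and 69.4 CPM in WT (log2 fold change -4.36, SE 0.57). T07H8.11, a gene without a characterised product, had 18.1 and 12.5 CPM in R9QT102I, 252 and 361 CPM in R9QG265R, 36.3 and 42.8 CPM in R9Q and 3.34 and 0.777 CPM in WT (log2 fold change -4.33, SE 0.57). Both R9QG265R libraries stood above every R9Q and WT library in these genes.

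**Figure D2:**
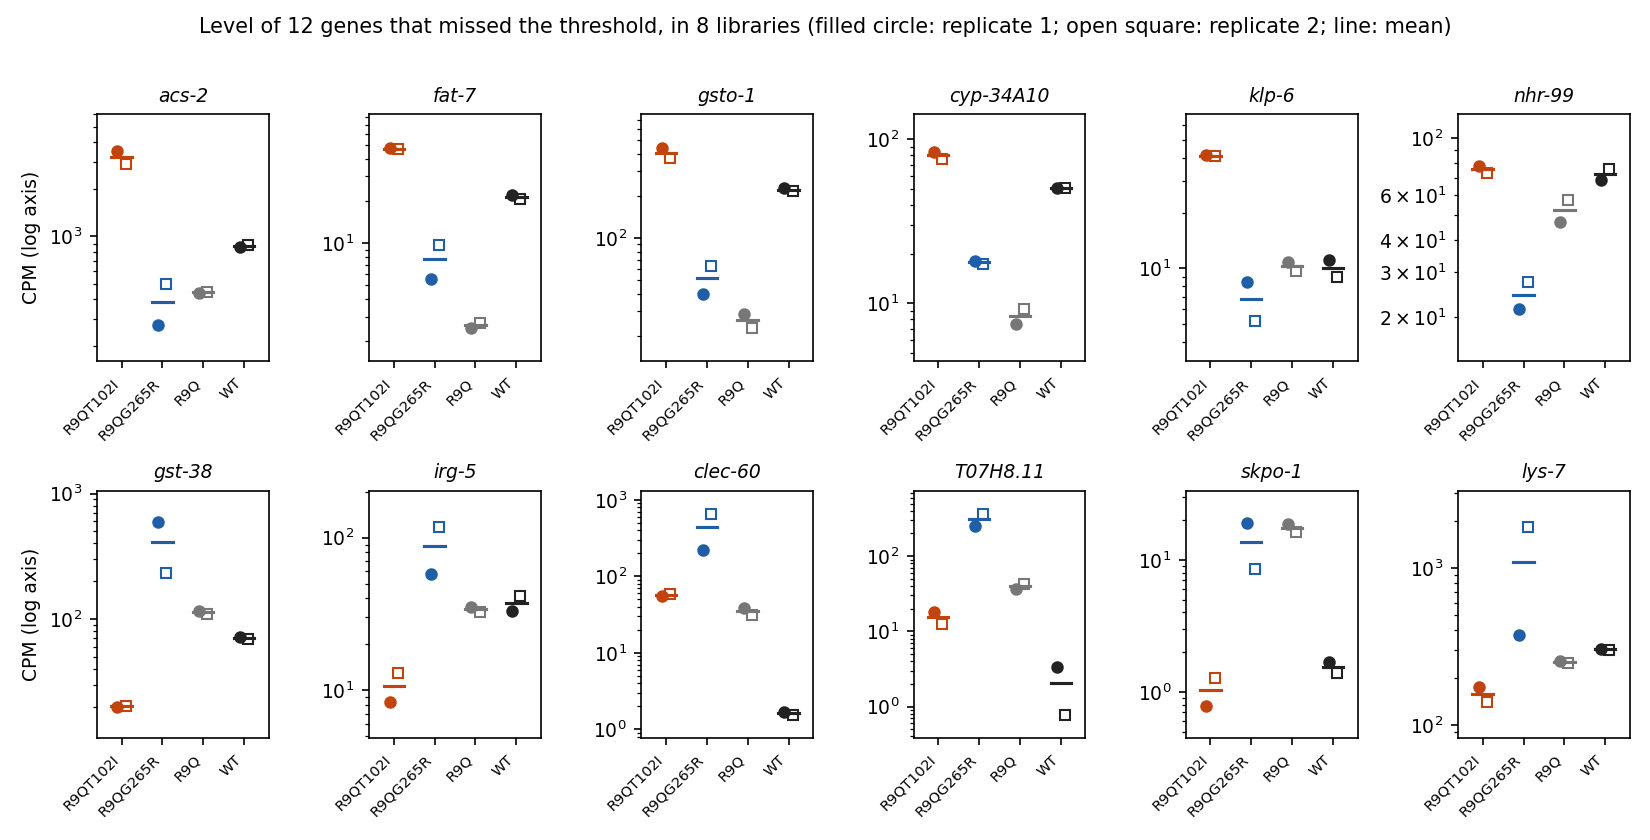
Level in CPM (log axis) of named genes that missed the threshold, with 1 point per library of R9QT102I, R9QG265R, R9Q and WT. The acs-2 points of R9QT102I stand at 3521 and 2897 CPM, above the 273 and 495 CPM of R9QG265R, and those of gst-38 at 19.99 and 20.2 CPM, below 591 and 234 CPM.

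Transcripts that distinguish R9Q, the strain without a second change, from WT show where each double mutant lay on that scale. In the same fit 38 genes (0.310% of those tested) were called between R9Q and WT, whose libraries lie outside the comparison but share its estimate of spread. Genes called in a fit tend to have a small estimated spread, which also lowers their p in the comparison. A small spread between replicates also makes it more likely that the libraries of the compared strains do not overlap. The shares of these genes by p and by lack of overlap can therefore be raised by their choice. Of the 26 genes lower in R9Q than in WT, 23 had a positive log2 fold change of R9QT102I over R9QG265R, 2 a negative one and 1 had 0 counts in all 4 libraries, against 49.3% positive among all tested genes. Both R9QT102I libraries lay above both R9QG265R libraries (no overlap upwards, for short) in 23 of the 26, against 15.1% of all genes, 21 had an unadjusted p under 0.05 (3.29% of all genes in this direction), and 5 were called higher (spp-9, cpt-3, cyp-13B1, oac-14 and nspg-7.2). The median log2 fold change of the 26 was 1.11, against -0.01 over all tested genes.

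The levels of the 26 genes place R9QT102I between R9Q and WT and R9QG265R nearer to R9Q. Their median level was 83.9 and 83.7 CPM in R9QT102I, 38 and 31.6 CPM in R9QG265R, 21.7 and 21.1 CPM in R9Q and 123 and 122 CPM in WT. A further member, ech-1.1, of an enzyme class (enoyl-CoA hydratases) that acts in fatty acid oxidation, had 20.8 and 18.6 CPM in R9QT102I, 8.33 and 4.87 CPM in R9QG265R, 1.91 and 2.32 CPM in R9Q and 31.5 and 29.7 CPM in WT (log2 fold change 1.57, SE 0.48, adjusted p = 0.450). The lectin clec-70, a sugar-binding protein, had 23.6 and 26.6 CPM in R9QT102I, 9.29 and 6.21 CPM in R9QG265R, 1.32 and 1.68 CPM in R9Q and 49.3 and 45.5 CPM in WT (log2 fold change 1.69, SE 0.51, adjusted p = 0.436).

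The 12 genes higher in R9Q than in WT all had a negative log2 fold change of R9QT102I over R9QG265R, against 50.7% of all tested genes, with a median of -0.95. The 12 include dpy-14, near its floor in both suppressed strains, and WBGene00009837, at -0.10 (SE 0.27), and neither sign stands out from the spread. Of these, 0 were called, 8 had an unadjusted p under 0.05 (3.29% of all genes in this direction), and in 10 both R9QT102I libraries lay below both R9QG265R libraries (no overlap downwards, 13.5% of all genes). Their median level was 26.2 and 26.9 CPM in R9QT102I, 94.4 and 76 CPM in R9QG265R, 37.4 and 35.2 CPM in R9Q and 2.51 and 1.63 CPM in WT. For this median the R9QG265R libraries lay above R9Q and the R9QT102I libraries remained above WT. The lectin clec-60, induced by bacterial infection, had 54.9 and 58.3 CPM in R9QT102I, 223 and 647 CPM in R9QG265R, 38.7 and 30.9 CPM in R9Q and 1.67 and 1.55 CPM in WT (log2 fold change -2.94, SE 0.52, adjusted p = 0.114). The superoxide dismutase gene sod-5 had 0.944 and 0.853 CPM in R9QT102I, 2.08 and 3.36 CPM in R9QG265R, 8.22 and 7.61 CPM in R9Q and 0.760 and 1.09 CPM in WT (adjusted p = 0.36).

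Collagen genes of the same list were near their floor in both suppressed strains. The collagen dpy-14 had 0.315 and 0.284 CPM in R9QT102I and 0.480 and 0.168 CPM in R9QG265R, against 17.5 and 17.4 CPM in R9Q and 1.06 and 0.932 CPM in WT. The suppressed strains' libraries held 1 to 3 counts of dpy-14 each, at or under the floor, so its sign between these strains carries no direction. The collagen col-165 had 0.472 and 0.569 CPM in R9QT102I, 0.961 and 1.17 CPM in R9QG265R, 22.3 and 25.3 CPM in R9Q and 0.456 and 1.24 CPM in WT. The raised level of these collagens in R9Q was thus in neither double mutant.

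**Figure D3:**
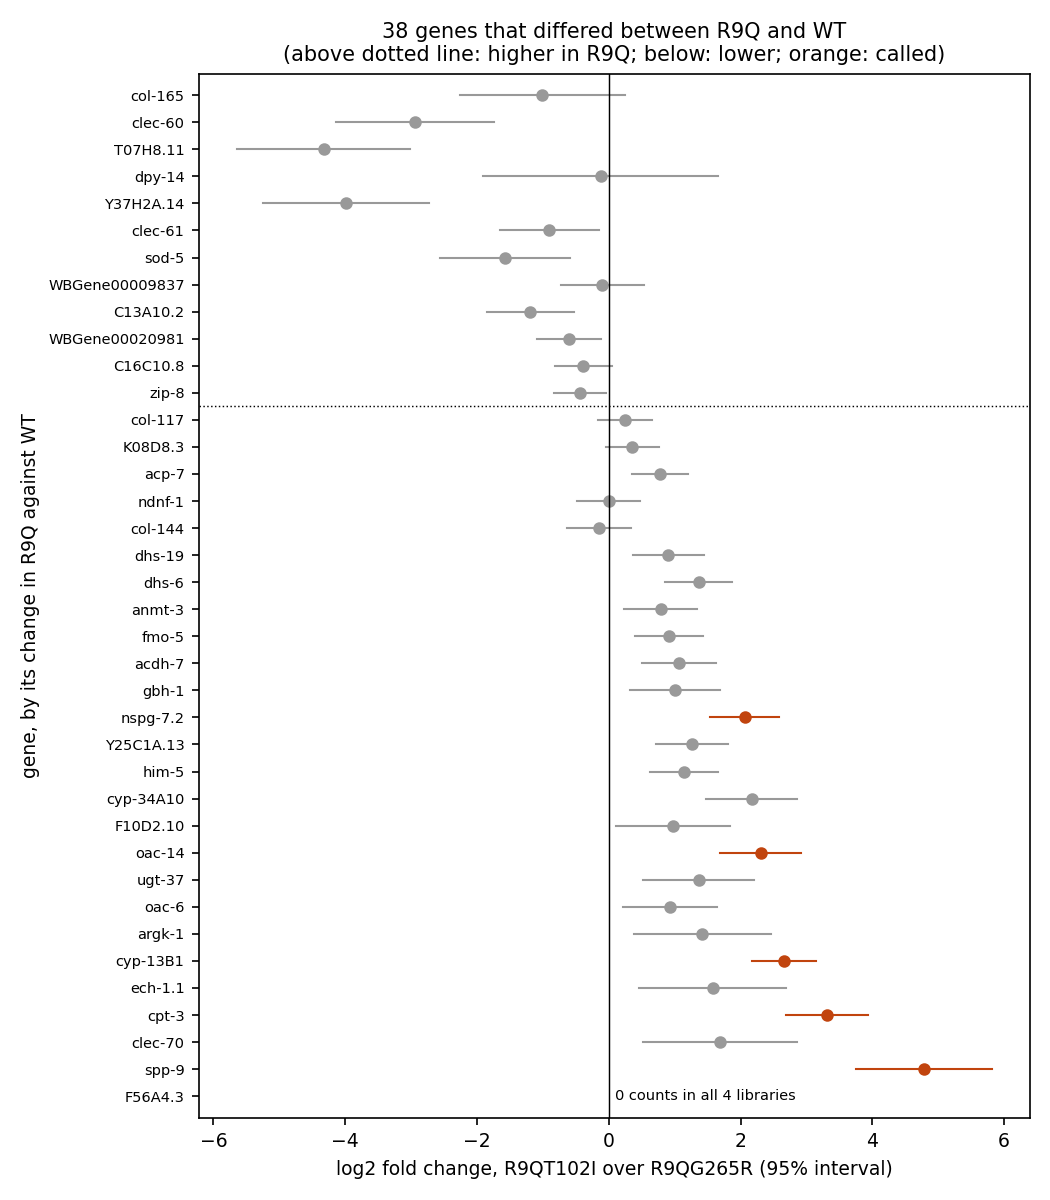
Log2 fold change of R9QT102I over R9QG265R (x axis, point with 95% interval) for the 38 genes called between R9Q and WT, 1 row per gene, with the genes higher in R9Q above the dotted line, those lower in R9Q below it and the called genes in orange. Most genes lower in R9Q lie right of 0 (23 of 26) and those higher in R9Q lie left of it (12 of 12). The 12 include dpy-14, which was near its floor in both strains.

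Genes of fat metabolism are given as 3 lists, and each list is described by its counts beside the shares over all tested genes. Over all of these, 3.29% were higher and 3.29% lower at an unadjusted p under 0.05, 15.1% did not overlap upwards and 13.5% downwards, and the median log2 fold change was -0.01. Among 28 tested genes of fatty acid activation and oxidation (of 60 listed), 1 was called higher in R9QT102I (cpt-3), and 7 (25%) had a higher and 1 (3.57%) a lower level at an unadjusted p under 0.05, against 3.29% of all genes in each direction. In this list 12 genes (42.9%) did not overlap upwards, against 15.1% of all genes, and 2 (7.14%) downwards, against 13.5%, and the median log2 fold change was 0.34. The list held 0.859% and 0.809% of assigned counts in R9QT102I and 0.417% and 0.401% in R9QG265R. Most of that difference came from acs-2, and without it the list held 0.515% and 0.519% in R9QT102I and 0.392% and 0.356% in R9QG265R. The mitochondrial carnitine palmitoyltransferase gene cpt-1 had 1700 and 1544 CPM in R9QT102I, 859 and 1186 CPM in R9QG265R, 883 and 800 CPM in R9Q and 2004 and 1976 CPM in WT (log2 fold change 0.67, SE 0.24, adjusted p = 0.616). For cpt-1, as for cpt-3, R9QT102I lay nearer to WT and R9QG265R nearer to R9Q.

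Among 10 tested fatty acid desaturases and elongases, 7 had a positive fold change (49.3% of all genes), 2 (20%) at an unadjusted p under 0.05 against 3.29% of all genes, 0 were called, and the median log2 fold change was 0.78. The stearoyl-CoA desaturase gene fat-7, which makes monounsaturated fatty acids, had 48.0 and 46.8 CPM in R9QT102I, 5.6 and 9.73 CPM in R9QG265R, 2.5 and 2.71 CPM in R9Q and 22 and 20.7 CPM in WT (log2 fold change 2.63, SE 0.46, adjusted p = 0.109). The omega-3 desaturase gene fat-1 had 3215 and 3014 CPM in R9QT102I, 1615 and 1566 CPM in R9QG265R, 656 and 655 CPM in R9Q and 1359 and 1334 CPM in WT (log2 fold change 0.97, SE 0.21, adjusted p = 0.222). R9QT102I was the highest strain for both desaturases. Of 8 tested fatty acid and lipid binding genes, 1 (12.5%) passed the unadjusted threshold upwards, against 3.29% of all genes. This was far-3, a fatty acid and retinol binding protein. It had 549 and 432 CPM in R9QT102I, 193 and 94.0 CPM in R9QG265R, 22.9 and 21.1 CPM in R9Q and 30.6 and 28.4 CPM in WT, so both suppressed strains lay above R9Q and WT (log2 fold change 1.77, SE 0.36, adjusted p = 0.187).

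Detoxification genes, whose enzymes modify lipids and foreign compounds and then conjugate them, leaned upwards by number of genes for cytochromes P450 and UDP-glucuronosyltransferases. Of 61 tested cytochrome P450 genes, 1 was called higher (cyp-13B1), and 11 (18%) had a higher and 3 (4.92%) a lower level at an unadjusted p under 0.05, against 3.29% of all genes in each direction. In this family 22 genes (36.1%) did not overlap upwards, against 15.1% of all genes, and 9 (14.8%) downwards, near the 13.5% of all genes, with a median log2 fold change of 0.29. Of 50 tested UDP-glucuronosyltransferases, 0 were called, 11 (22%) had a higher and 1 (2%) a lower level at an unadjusted p under 0.05, against 3.29% of all genes in each direction, and the median was 0.26. This list held 0.236% and 0.359% of assigned counts in R9QT102I and 0.380% and 0.156% in R9QG265R, so its sum did not separate the strains. The gene ugt-32 had 170 and 135 CPM in R9QT102I, 60.4 and 57.1 CPM in R9QG265R, 44 and 41 CPM in R9Q and 48.8 and 59.3 CPM in WT (log2 fold change 1.38, SE 0.28, adjusted p = 0.180), while ugt-37 had 65.6 and 90.8 CPM in R9QT102I and 41.5 and 19.3 CPM in R9QG265R (log2 fold change 1.36, SE 0.36, adjusted p = 0.351).

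The 44 tested glutathione transferases went both ways, with 5 (11.36%) higher and 6 (13.64%) lower at an unadjusted p under 0.05, against 3.29% of all genes in each direction, 0 called and a median log2 fold change of -0.11. The omega-class gene gsto-1 had 441 and 372 CPM in R9QT102I, 39.9 and 62.9 CPM in R9QG265R, 28.8 and 22.8 CPM in R9Q and 228 and 215 CPM in WT (log2 fold change 2.98, SE 0.48, adjusted p = 0.0966). Its family member gst-38, described above, lay the other way. Of 168 tested nuclear hormone receptor genes, which encode ligand-gated transcription factors, 10 (5.95%) had a higher and 5 (2.98%) a lower level at an unadjusted p under 0.05, against 3.29% of all genes in each direction, 0 were called and the median was 0.13.

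Among the defence lists, the irg and dod genes had the lowest median. Of 10 tested irg and dod genes, named as infection response genes and as genes downstream of the insulin-regulated factor DAF-16, 1 had a positive log2 fold change, 7 had a lower level at an unadjusted p under 0.05 against 3.29% of all genes, and 8 did not overlap downwards against 13.5% of all genes. The median log2 fold change was -2.30. The gene irg-5 had 8.34 and 13.1 CPM in R9QT102I, 58.1 and 118 CPM in R9QG265R, 35.4 and 32.4 CPM in R9Q and 33.1 and 41.6 CPM in WT (log2 fold change -3.04, SE 0.42, adjusted p = 0.0505). In irg-5 the R9QG265R libraries lay above and the R9QT102I libraries below both R9Q and WT.

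The abundant members of the list differed most through R9QG265R replicate 1. The gene dod-17 had 485 and 432 CPM in R9QT102I, 6334 and 1240 CPM in R9QG265R, 2946 and 2857 CPM in R9Q and 655 and 662 CPM in WT (adjusted p = 0.685). The gene dod-24 had 1290 and 1431 CPM in R9QT102I, 9246 and 2979 CPM in R9QG265R, 2737 and 2850 CPM in R9Q and 955 and 986 CPM in WT (adjusted p = 0.649). The gene irg-1, a marker of surveillance of translation in the intestine, had 45.6 and 32 CPM in R9QT102I, 343 and 75.0 CPM in R9QG265R, 98.6 and 99.4 CPM in R9Q and 18.4 and 16.5 CPM in WT (adjusted p = 0.364). For dod-17 and dod-24 the R9QT102I libraries lay nearer to WT than to R9Q, while for irg-1 they lay between the levels of WT and R9Q. These genes are known mainly from the intestine, and 10 intestinal markers together held 0.140% and 0.148% of assigned counts in R9QT102I and 1.02% and 0.148% in R9QG265R. The high sum of R9QG265R replicate 1 came from pept-1, the intestinal peptide transporter, with 921 and 1045 CPM in R9QT102I and 10820 and 1365 CPM in R9QG265R. The defining intestinal gene elt-2 stood between 105 and 162 CPM in the 4 libraries, 2 of the 10 markers had 0 counts in all 10 libraries, and the part of intestinal RNA in these differences was not tested.

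C-type lectins, secreted sugar-binding proteins of the gut and epidermis, were the largest defence list. Among the tested members, 12 (10.3%) had a higher and 22 (19%) a lower level at an unadjusted p under 0.05, against 3.29% of all genes in each direction, and 0 were called. Of these lectins 24 (20.7%) did not overlap upwards, against 15.1% of all genes, and 37 (31.9%) downwards, against 13.5%, and the median log2 fold change was -0.19. The abundant clec-72 had 436 and 431 CPM in R9QT102I, 938 and 950 CPM in R9QG265R, 435 and 453 CPM in R9Q and 509 and 520 CPM in WT (log2 fold change -1.12, SE 0.19, adjusted p = 0.101). Here R9QT102I lay at the low end of the R9Q and WT range and R9QG265R above it. The gene clec-160 had 37.6 and 53.0 CPM in R9QT102I, 168 and 118.6 CPM in R9QG265R, 100 and 99.6 CPM in R9Q and 36.5 and 42.2 CPM in WT (log2 fold change -1.66, SE 0.28, adjusted p = 0.105). The gene clec-58 had 2.83 and 1.99 CPM in R9QT102I and 19.7 and 16.6 CPM in R9QG265R (log2 fold change -2.90, SE 0.50, adjusted p = 0.107).

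Of 11 tested lysozymes, which cut bacterial cell walls, 2 (18.2%) had a lower level at an unadjusted p under 0.05, against 3.29% of all genes, and 4 (36.4%) did not overlap downwards, against 13.5%, with a median log2 fold change of -1.11. The gene lys-7 had 173 and 140 CPM in R9QT102I and 375 and 1823 CPM in R9QG265R, so its log2 fold change of -2.81 (SE 0.96, adjusted p = 0.565) rests largely on R9QG265R replicate 2. The gene lys-2 had 410 and 399 CPM in R9QT102I and 675 and 1076 CPM in R9QG265R (log2 fold change -1.11, SE 0.40, adjusted p = 0.592). Of 18 tested saposin-like genes, 1 was called higher (spp-9), 2 had a higher and 2 a lower level at an unadjusted p under 0.05 (11.1% each, against 3.29% of all genes), and the median was -0.03. The gene spp-12 had 32.4 and 22.9 CPM in R9QT102I, 2.88 and 0.503 CPM in R9QG265R, 1.17 and 0.516 CPM in R9Q and 24.8 and 23.6 CPM in WT (log2 fold change 4.01, SE 0.85, adjusted p = 0.209). As for spp-9, both R9QT102I libraries stood above every R9QG265R and R9Q library. Unlike for spp-9, the R9QT102I libraries of spp-12 did not both pass WT, and R9QG265R replicate 2, with 3 counts, was not above R9Q.

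The other stress lists held 0 called genes. Among 114 tested fbxa genes, F-box proteins thought to select targets for ubiquitin ligases, 1 (0.877%) had a higher and 11 (9.65%) a lower level at an unadjusted p under 0.05, against 3.29% of all genes in each direction. Of these genes 24 (21.1%) did not overlap downwards, against 13.5% of all genes, with a median of -0.18. Of 26 tested pals genes, a family induced by intracellular pathogens, 1 (3.85%) had a higher and 3 (11.5%) a lower level at that threshold and the median was -0.06. The gene pals-6 had 6.77 and 8.10 CPM in R9QT102I, 21.8 and 27 CPM in R9QG265R, 9.10 and 8.25 CPM in R9Q and 0.760 and 2.49 CPM in WT (adjusted p = 0.371). The small heat shock gene hsp-12.6 had 0.787 and 1.42 CPM in R9QT102I, 6.08 and 3.02 CPM in R9QG265R, 8.07 and 8.25 CPM in R9Q and 2.58 and 2.33 CPM in WT (adjusted p = 0.357). Of 5 tested endoplasmic reticulum chaperones, 3 had a lower level at an unadjusted p under 0.05 (60%, against 3.29% of all genes), among them the DnaJ co-chaperone dnj-7, with 212 and 220 CPM in R9QT102I and 292.5 and 451 CPM in R9QG265R (log2 fold change -0.78, SE 0.24, adjusted p = 0.453).

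At some further loci named genes that lay near each other shared their direction, and 2 such loci are given here. They were noticed among genes named for their low p. Neighbours were not searched for across the genome, so how often neighbouring genes agree was not tested. Named genes near each other also went opposite ways. On chromosome IV, clec-70 (3932708 to 3936307) had a log2 fold change of 1.69 and clec-72 (3944816 to 3947362) one of -1.12. On chromosome II, dod-23 (8398161 to 8399164) had 0.315 and 0.284 CPM in R9QT102I, from 2 counts each, and 4.80 and 5.54 CPM in R9QG265R (adjusted p = 0.0822). Beside it, skpo-1 (8400299 to 8404848), a secreted peroxidase, had 0.787 and 1.28 CPM in R9QT102I, 18.9 and 8.56 CPM in R9QG265R, 18.8 and 16.2 CPM in R9Q and 1.67 and 1.40 CPM in WT (log2 fold change -3.70, SE 0.60, adjusted p = 0.0964). On chromosome IV, hpo-6 (1562184 to 1564076), near C34H4.2 and known from sensitivity to a pore-forming toxin, had 87.5 and 83.3 CPM in R9QT102I, 568 and 349 CPM in R9QG265R, 234 and 240 CPM in R9Q and 118 and 138 CPM in WT (log2 fold change -2.42, SE 0.42, adjusted p = 0.107).

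Cuticle and molting genes separated 1 library from the other 3. The 6 furrow collagens, which shape the circumferential grooves of the cuticle, had a median of 109 and 77.1 CPM in R9QT102I and 0.40 and 96.3 CPM in R9QG265R, while R9Q had 1.91 and 1.68 CPM and WT 1.37 and 0.854 CPM. Thus 3 of the 4 compared libraries stood high, and R9QG265R replicate 1 stood as low as R9Q and WT. The median log2 fold change of the 6 genes was 1.0, 0 were called, and 0 did not overlap between the strains. The furrow collagen dpy-10 had 88.8 and 74.9 CPM in R9QT102I and 0.160 and 79.7 CPM in R9QG265R, and its log2 fold change of 1.04 (SE 1.71, adjusted p = 1) became -0.01 without R9QG265R replicate 1.

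The same held for the proteins of the matrix that coats the epidermis during a molt. The lipocalin-related gene lpr-3 had 214 and 204 CPM in R9QT102I and 1.12 and 208 CPM in R9QG265R, and noah-2, a matrix protein, had 202 and 211 CPM in R9QT102I and 5.6 and 210 CPM in R9QG265R. Both had an adjusted p of 1. Of 27 tested molting effectors and matrix genes, 23 (85.2%) had a positive log2 fold change, against 49.3% of all genes, and 10 (37%) did not overlap upwards, against 15.1%, but 0 had an unadjusted p under 0.05. Their median level was 68.5 and 85.6 CPM in R9QT102I, 5.12 and 62.4 CPM in R9QG265R, 3.52 and 4.0 CPM in R9Q and 4.71 and 3.11 CPM in WT. The 10 markers of the hypodermis, the epidermis that secretes the cuticle, held 0.0373% and 0.0333% of assigned counts in R9QT102I and 0.0124% and 0.0279% in R9QG265R. These markers include dpy-10, 3 of the 10 had 0 counts in all libraries, and tsp-15, a hypodermal membrane protein, stood between 84.2 and 132 CPM in the 4 libraries. In whole animals a smaller share of a cell type and less RNA per cell cannot be told apart, and the part of molt timing in these values was not tested.

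**Figure D4:**
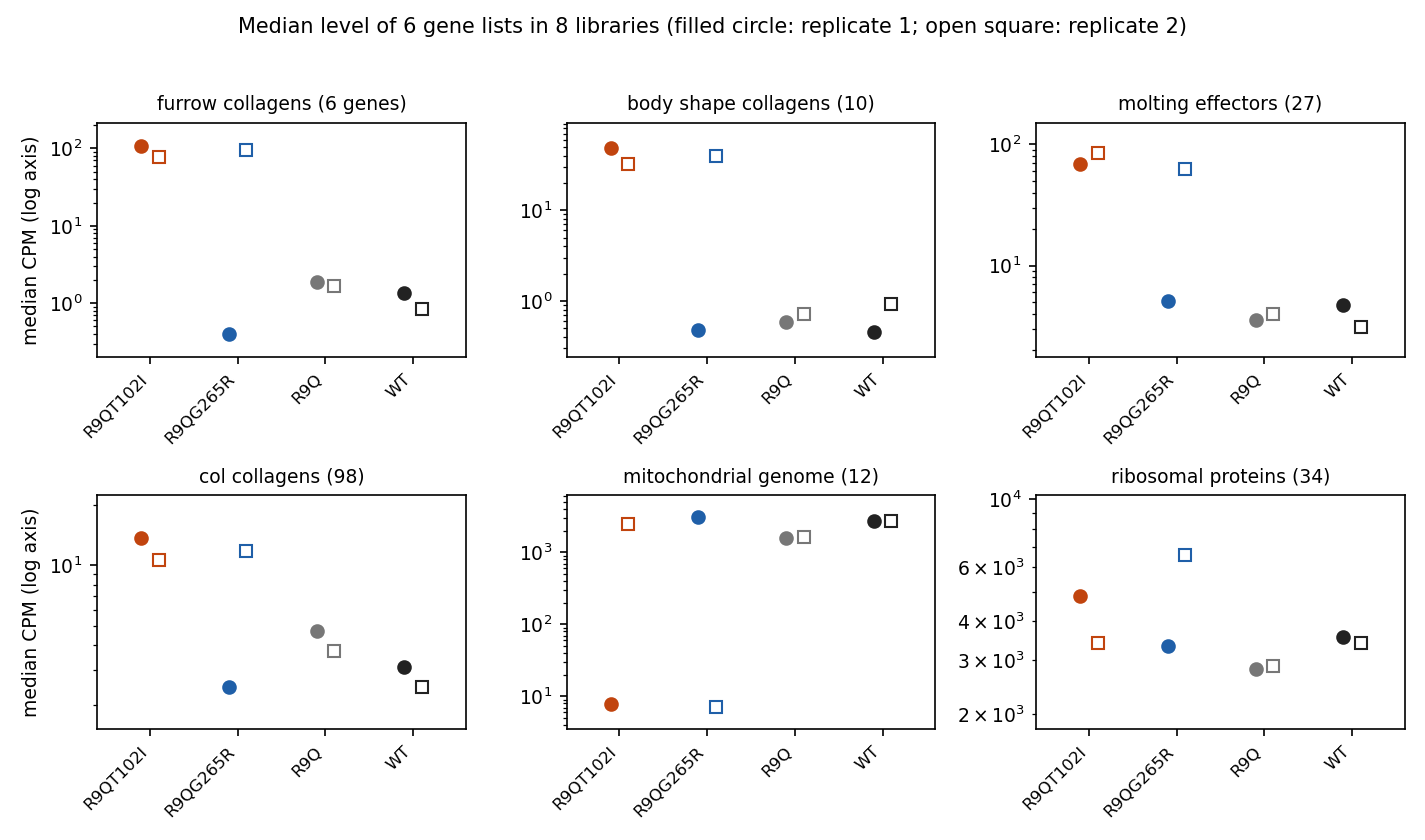
Median level in CPM (log axis) of gene lists in each library of R9QT102I, R9QG265R, R9Q and WT. The furrow collagens stand at 109 and 77.1 CPM in R9QT102I and at 0.40 and 96.3 CPM in R9QG265R, so replicate 1 of R9QG265R falls with R9Q and WT.

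Other cuticle families varied in their medians. Of 7 tested abu and pharyngeal cuticle genes, 2 (28.6%) had a higher level at an unadjusted p under 0.05, against 3.29% of all genes, 5 (71.4%) did not overlap upwards, against 15.1%, 0 were called and the median log2 fold change was 1.23. Levels were low, and abu-1, among the 2, had 15 and 15 counts in R9QT102I and 2 and 1 in R9QG265R. The list held 0.0158% and 0.0129% of assigned counts in R9QT102I and 0.00167% and 0.0125% in R9QG265R, so R9QG265R replicate 1 stood apart here too. Of 21 tested cuticlins, 1 (4.76%) had a higher level at that threshold, 7 (33.3%) did not overlap upwards, 0 were called and the median was 0.43. Of 98 tested col collagens, 2 had a higher and 2 a lower level at an unadjusted p under 0.05 (2.04% each), and the median was 0.25. Of 18 tested patched-related genes, whose products act in cuticle and apical membrane traffic, 1 (5.56%) passed that threshold upwards and 11 (61.1%) did not overlap upwards, against 3.29% and 15.1% of all genes, with a median of 0.59. Their median level was 38.3 and 40.7 CPM in R9QT102I and 10.5 and 29.3 CPM in R9QG265R. The member ptr-14 had 189 and 241 CPM in R9QT102I, 61.2 and 100 CPM in R9QG265R, 59.3 and 71.5 CPM in R9Q and 149 and 163 CPM in WT (log2 fold change 1.41, SE 0.28, adjusted p = 0.179). The molting regulator nhr-23, a nuclear hormone receptor, had 5.35 and 9.52 CPM in R9QT102I and 3.84 and 1.68 CPM in R9QG265R (adjusted p = 0.784).

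Lists of genes of the neurons in which UNC-104 works held 0 called genes, which at this spread does not show that the strains are alike. The neuronal marker rgef-1 differed by library, with 6.93 and 38.2 CPM in R9QT102I and 35.2 and 3.36 CPM in R9QG265R. Of 20 tested synaptic vesicle genes and 22 tested FMRFamide-like neuropeptide genes, 0 were called and 0 had an unadjusted p under 0.05, with median log2 fold changes of 0.01 (-0.02 with DESeq2 size factors) and -0.10. The synaptobrevin gene snb-1, the vesicle membrane protein whose transport needs UNC-104, had 675 and 668 CPM in R9QT102I, 659 and 637 CPM in R9QG265R, 882 and 800 CPM in R9Q and 943 and 916 CPM in WT. Its log2 fold change was 0.05 with a 95% interval of -0.51 to 0.61, and a difference within it was not detectable at this spread. The kinesin-1 heavy chain gene unc-116 had 676 and 601 CPM in R9QT102I and 693 and 681 CPM in R9QG265R (log2 fold change -0.11, 95% interval -0.69 to 0.48).

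Of 22 tested axonal transport genes, 1 (4.55%), klp-6, passed the unadjusted threshold upwards, near the 3.29% of all genes, and the median was 0.11. The neuronal kinase gene cdk-5, which controls polarised transport in axons, had 72.4 and 62.4 CPM in R9QT102I and 46.6 and 52.4 CPM in R9QG265R (log2 fold change 0.45, SE 0.19, adjusted p = 0.774). Of 57 tested nlp neuropeptide genes 0 passed the unadjusted threshold, with a median of -0.09. The insulin-like list had 2 of 25 tested genes (8%) with a lower level at that threshold, against 3.29% of all genes. In it 6 genes (24%) did not overlap downwards, against 13.5% of all genes, and 1 (4%) upwards, against 15.1%. Among the 2 was ins-1 with 83.7 and 81.2 CPM in R9QT102I and 115 and 106 CPM in R9QG265R (log2 fold change -0.42, SE 0.18, adjusted p = 0.745). The neuropeptide gene flp-13 had 327 and 289 CPM in R9QT102I and 385 and 438 CPM in R9QG265R (adjusted p = 0.802).

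Of 10 tested touch receptor neuron genes, 9 had a positive log2 fold change, against 49.3% of all genes, 3 (30%) at an unadjusted p under 0.05, against 3.29%, and 5 (50%) did not overlap upwards, against 15.1%. In this list 0 were called, and the median was 0.47. The gene mec-18 had 123 and 120 CPM in R9QT102I, 71.1 and 76 CPM in R9QG265R, 75.3 and 68.6 CPM in R9Q and 107 and 101.9 CPM in WT (log2 fold change 0.72, SE 0.19, adjusted p = 0.343). The mechanosensory channel gene mec-10 had 39.7 and 40.1 CPM in R9QT102I, 28 and 26.5 CPM in R9QG265R, 24.22 and 26.4 CPM in R9Q and 33 and 34.5 CPM in WT (log2 fold change 0.55, SE 0.21, adjusted p = 0.651). In both genes R9QG265R lay at the R9Q level and R9QT102I above WT.

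Of 12 tested tubulins, 3 (25%) had a lower level at an unadjusted p under 0.05, against 3.29% of all genes, and the median was -0.36. The beta-tubulin gene tbb-6, known as a stress-induced tubulin, had 7.87 and 5.97 CPM in R9QT102I, 25.3 and 12.4 CPM in R9QG265R, 34.9 and 38.9 CPM in R9Q and 7.30 and 5.13 CPM in WT (log2 fold change -1.45, SE 0.39, adjusted p = 0.363). Of 14 tested genes of the JNK and neuronal kinase pathway, 1 (7.14%) passed upwards at that threshold, against 3.29% of all genes. This was kreg-1, a target of the JNK-like kinase KGB-1. It had 13.4 and 5.40 CPM in R9QT102I, 2.72 and 2.01 CPM in R9QG265R, 9.98 and 12.4 CPM in R9Q and 89.5 and 82.0 CPM in WT (log2 fold change 1.98, SE 0.45, adjusted p = 0.260). Neither double mutant came near the WT level of kreg-1.

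The remaining lists held 0 called genes. Of 13 tested muscle contractile genes, 3 (23.1%) did not overlap downwards, against 13.5% of all genes, and 1 (7.69%) had a lower level at an unadjusted p under 0.05, against 3.29%, the troponin I gene tni-1. It had 508 and 550 CPM in R9QT102I, 863 and 915 CPM in R9QG265R, 1183 and 1167 CPM in R9Q and 1201 and 1210 CPM in WT (log2 fold change -0.75, SE 0.20, adjusted p = 0.349). Of 19 tested proteasome subunits, 1 (5.26%) had a positive log2 fold change, against 49.3% of all genes, 0 had an unadjusted p under 0.05, and the median was -0.48. The vacuolar ATPase subunit gene vha-12 had 940 and 1320 CPM in R9QT102I and 1979 and 1869 CPM in R9QG265R (log2 fold change -0.77, SE 0.30, adjusted p = 0.672). The meiosis gene him-5 had 53.2 and 68.9 CPM in R9QT102I, 29.9 and 25.2 CPM in R9QG265R, 19.1 and 20.6 CPM in R9Q and 99.4 and 100 CPM in WT (log2 fold change 1.15, SE 0.22, adjusted p = 0.162). Ribosomal protein genes followed the library and not the strain, with a median of 4835 and 3404 CPM in R9QT102I and 3322 and 6570 CPM in R9QG265R.

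Each strain had 1 library with few mitochondrial transcripts, so libraries of like mitochondrial share were also compared as pairs, without a test. The low pair is R9QT102I replicate 1 with R9QG265R replicate 2 and the high pair is R9QT102I replicate 2 with R9QG265R replicate 1. In the low pair 87 genes were at least 4-fold higher (0.709%) and 86 at least 4-fold lower (0.701%) in R9QT102I, and in the high pair 237 were higher (1.93%) and 143 lower (1.17%), with 1 CPM added. Both pairs had 20 genes at least 4-fold higher (0.163%) and 26 at least 4-fold lower (0.212%), and 0 genes that far apart in opposite directions. The 20 include cpt-3, cyp-13B1, spp-9, oac-14, cest-2.1, acs-2, gsto-1, fat-7, spp-12 and klp-6, and the 26 include tag-293, F01D5.1, C34H4.2, gst-38, irg-5 and skpo-1.

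The lists differed in how alike the pairs were. The log2 ratio of cpt-3 was 3.0 in the low pair and 3.08 in the high pair, that of acs-2 2.83 and 3.40, and that of fat-7 2.19 and 2.85, and these 3 are among the genes at least 4-fold higher in both. Their lists had smaller medians, 0.31 in the low pair and 0.50 in the high pair for fatty acid activation and oxidation, and 0.70 and 0.54 for desaturases and elongases, while the lipid binding genes had 0.03 and 0.64. The furrow collagens had a median log2 ratio of 0.17 in the low pair and 5.22 in the high pair, and the molting effectors 0.03 and 1.59. The body shape collagens had 0.16 in the low pair and 4.09 in the high pair. Medians of other cuticle lists were closer between the pairs, with 0.39 and 0.48 for cuticlins and 0.91 and 1.21 for abu and pharyngeal cuticle genes. Of the 7 abu and pharyngeal cuticle genes, 0 were at least 4-fold higher in the low pair and 2 in the high pair, against 0.709% and 1.93% of all genes. The col collagens had 0.04 and 0.43 and the patched-related genes 0.20 and 0.60. Of 98 col collagens, 2 were at least 4-fold higher in the low pair and 18 in the high pair, against 0.709% and 1.93% of all genes. In these pairs 0 and 1 were at least 4-fold lower. The irg and dod genes had medians of -1.1 and -1.66, and the 26 genes lower in R9Q had 1.06 and 1.08. The UDP-glucuronosyltransferases had medians of 0.39 and 0.36, with 0 and 1 at least 4-fold higher and 0 and 2 at least 4-fold lower. The lysozymes had -1.17 in the low pair and 0.02 in the high pair. With a term for the set of low-mitochondrial libraries in the fit of all 10, 136 genes were called, 61 higher and 75 lower, which include all 12 of the fit without the term, but the same term on the 4 compared libraries alone called 0 (985 at an unadjusted p under 0.05). Among the 136 acs-2 had an adjusted p of 0.0123, gsto-1 0.00635, fat-7 0.0123, fat-1 0.0283 and klp-6 0.00918, and irg-5, clec-72, clec-60, gst-38 and skpo-1 were also called. The furrow collagens dpy-10 and dpy-3 were not called with this term, at adjusted p-values of 0.367 and 0.341.

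**Figure D5:**
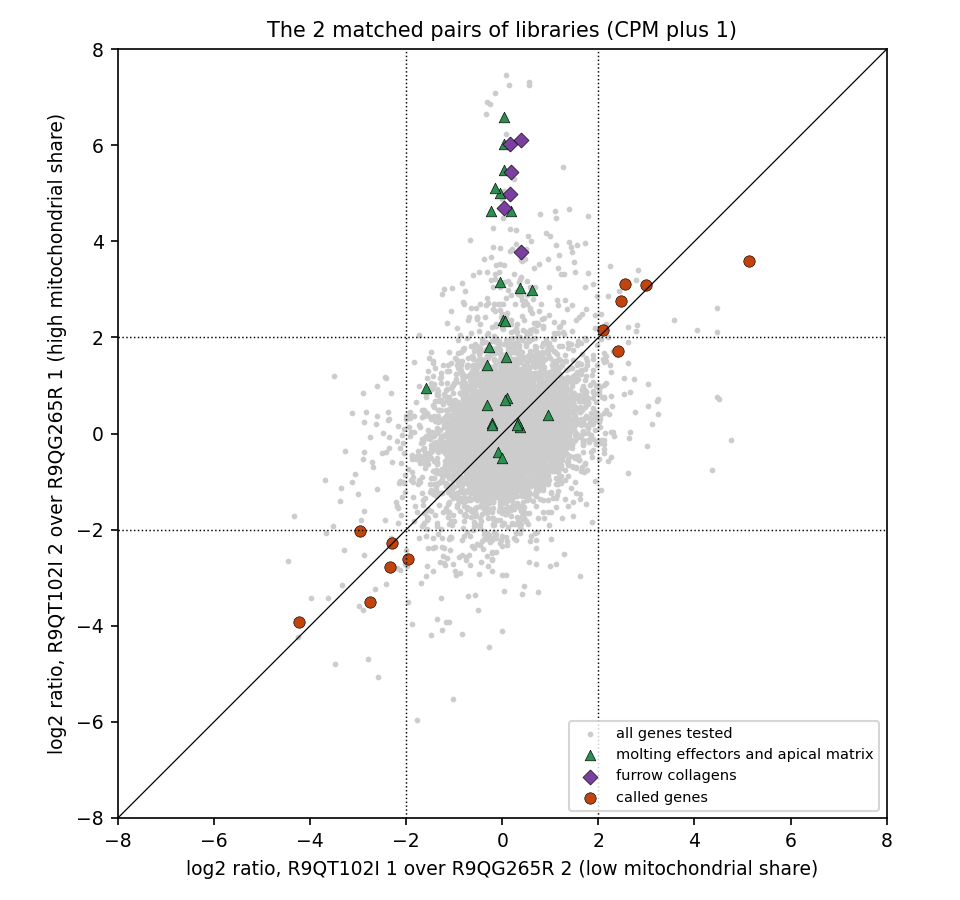
Log2 ratio of R9QT102I over R9QG265R in the low pair (x axis) against that in the high pair (y axis), 1 point per tested gene, with 1 CPM added to each level. The called genes lie far from 0 in both pairs, with cpt-3 at 3.0 and 3.08, while furrow collagens lie near 0 on the x axis and high on the y axis.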

How the data were processed

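Per the labels, total RNA of whole worms was extracted with TRIzol and made into libraries with the KAPA RNA HyperPrep kit. Per the submitters' processing notes, Trim Galore 0.4.4, STAR 2.5.4b, HTSeq 0.9.1 and the genome build ce11 were used. The authors deposited raw counts per transcript; the strand setting and annotation release are not given in the sources used here. Summary entries were dropped and 61451 transcripts were summed to 46907 genes: 56781 names matched the reference annotation by ID and 4581 by sequence name, and 89, with 0.0486% of counts, kept their own name.

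All 10 libraries were fitted in R 4.3.3 with edgeR 4.0.16 (filterByExpr with a minimum count of 10, TMM factors, glmQLFit, glmQLFTest, a term per strain), which left 12267 genes and an adjusted p threshold of 0.05. SEs and intervals derive from each gene's test statistic. WT and R9Q, with their smaller spread, lower the spread assumed for the compared strains, so the p-values can be too small. Paired log2 ratios used CPM plus 1. DESeq2 1.42.0 and the other alternatives are given in the closing section. The 49 gene lists and 9 cell marker lists, like the comparison itself, were chosen with earlier results of these data known. Only members past the filter were tested.

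Named genes were unc-104, unc-16, up to 10 called genes per direction (mean count 50 or more, a symbol, strains that do not overlap), filled with genes at least 2-fold apart in both pairs by lowest p, then 2 members per list by lowest p, and 5 genes per direction called between R9Q and WT. Not all of these are described. Added after their values were seen were snb-1, unc-116, rgef-1, cpt-1, lpr-3, noah-2, irg-1, dod-17, dod-24, pept-1, elt-2, tsp-15 and the genes with sequence names.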

Additional observations from a re-analysis of the deposited data

How the results depend on the processing

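Of 33 alternatives to the fit, 12 were added after the data were seen. The 12 called genes kept their direction in all 33 where they were tested, but the number of calls moved widely. The calls, with the percent of tested genes higher and lower in R9QT102I, were 334 (0.506% and 0.824%) with no count filter, 27 (0.129% and 0.187%) with at least 5 CPM in 4 libraries, 24 (0.0957% and 0.134%) for genes of 1 transcript, 136 (0.497% and 0.611%) with the library set term and 186 (0.685% and 0.831%) with the DESeq2 Wald test. They were 3496 (13.8% and 13.1%) with the 7 libraries that hold mitochondrial transcripts, where each compared strain has 1 library, assumed to vary like the others. They were 0 in both directions with the 4 compared libraries alone (436 genes at an unadjusted p under 0.05), with these 4 and the library set term (985) and with the 6 libraries of the suppressed strains (340). With the replicate number as a block they were 7 (0.0326% and 0.0245%), 6 of them shared. Same-numbered libraries deviated in opposite directions (correlation -0.636) and the mitochondrial share is crossed over the numbers, so the numbers were not taken as pairs. The titles only number the replicates, and whether a number marks a shared preparation was not tested. DESeq2 size factors and library sizes without mitochondrial and rRNA genes gave 12, and upper quartile factors gave 13. Leaving out 1 library at a time gave 0 to 70 calls (0 to 0.297% higher and 0 to 0.237% lower), and with the 12267 genes kept 0 to 71 (0 to 0.318% and 0 to 0.277%). The cause of these differences was not tested. Among the named genes 3 reversed, without R9QG265R replicate 1. Over the libraries left out the log2 fold change of dpy-10 ran from -0.0084 to 8.85, that of lpr-3 from -0.040 to 7.52 and that of noah-2 from -0.070 to 5.21, with lowest values of -0.0014, -0.033 and -0.063 when the tested genes were kept. At pseudocounts of 0.5 and 5 CPM, 33 and 6 genes were at least 4-fold higher and 34 and 11 lower in both pairs. Reads on shared exons were not counted, 57.7 to 61.8% of those aligned, which limits what can be said of genes with several transcripts.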
